A study of Mus musculus with 28 samples.

Results

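The step examined here is the last increase of romidepsin dose in CD4 T cells, from 10 to 30 nM. It was read from the levels on 4 of the 28 arrays of the series. These were the 2 arrays at 30 nM against the 2 arrays at 10 nM, paired by the replicate number in the labels. The spread between arrays, on which every p-value rests, was estimated from all 28. The question was which genes still moved after 10 nM and which had reached a plateau there. The cells were mouse splenic CD4 T cells taken by negative selection. They were stimulated for 2 days with plate-bound anti-CD3 (3 µg/ml) and soluble anti-CD28 (5 µg/ml), and the activated cells then received romidepsin for 1 day. The CD4 groups used were the stimulated control without drug and romidepsin at 2, 10 and 30 nM, and the same 4 groups of CD8 T cells served for comparison, each with 2 arrays. The fit also held the CD4 and CD8 groups given another drug, vorinostat, at 0.5, 2 and 10 µM. Their arrays entered the estimates of the spread and of the replicate difference. All of these groups, controls included, had the same stimulation, so no value describes resting cells. Strain, age, number of animals and drug vehicle were not given in the sources used here.

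Romidepsin is a cyclic peptide that inhibits class I histone deacetylases, the enzymes that take acetyl groups off histone tails. Blocking them raises histone acetylation across the genome, and transcription then moves in both directions: silent genes can be switched on, while genes with very active enhancers can lose transcription. In activated T cells the genes in play include cytokines, the antigen receptor machinery, costimulatory receptors and the survival genes that keep dividing cells alive.

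Levels were log2 GCRMA values, so a difference of 1 is a 2-fold change. A difference between doses is the mean over n = 2 pairs, and ± gives its standard error from the fit. That error rests on the spread over all arrays of the fit, so it does not measure how closely the 2 pairs agree. Of 18193 genes on the array, 9870 were above the detection level of 4.27 in at least 2 arrays and were tested. Between 8665 and 9275 genes lay over that level on the 4 arrays. Equal replicate numbers belonged together in the values. The difference between replicates 1 and 2 across genes correlated between any 2 of the 7 CD4 groups (0.762 to 0.940 over 21 pairs of groups, and 0.916 for 10 and 30 nM). Replicate 1 had the male transcript Eif2s3y and replicate 2 the female transcript Xist in every CD4 group, so replicate number and the sex of the mice cannot be told apart. Replicate 1 had also moved further from its control at 10 nM than replicate 2, with a standard deviation of the response across genes of 1.02 against 0.737. The 3' minus 5' signal of the beta-actin control probes, a measure of RNA integrity, was higher at the higher dose in both replicates, going from 1.33 to 1.55 in replicate 1 and from 0.850 to 0.971 in replicate 2 between 10 and 30 nM. Its part in the results was not tested beyond a fit with that value as a covariate, called the actin covariate here, and calls that this fit lost are named with the genes.

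From 10 to 30 nM, 635 genes rose (6.43% of those tested) and 421 fell (4.27%) with limma at an adjusted p under 0.05. The falls were larger: 139 genes fell by at least 2-fold and 107 rose by that much, and the median change was 0.65 among the genes that rose and -0.80 among those that fell. All 1056 called genes had the same sign in both replicate pairs, and across all tested genes the median was 0.02. Of the called genes, 600 had already been called in the same direction at 10 nM against control, 47 had been called in the opposite direction, and 409 had not been called at 10 nM. The 10 nM arrays enter both comparisons, so a chance deviation of these arrays pushes the response and the step in opposite directions. The calls rest on the pairing and on 2 arrays. Without the replicate block 11 genes rose and 1 fell, without replicate 2 of 10 nM 19 rose and 3 fell, without replicate 1 of 30 nM 52 rose and 22 fell, and with the actin covariate 326 rose and 226 fell. Of 117 called genes named by the rule, 6, 9, 15 and 65 passed in these fits, in that order.

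**Figure D1:**
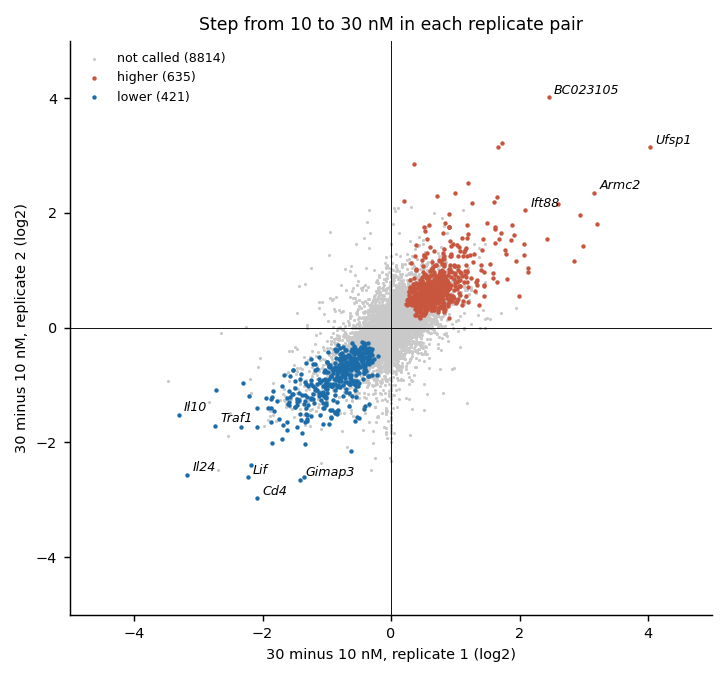
Difference between 30 and 10 nM romidepsin in CD4 T cells for each of the 9870 tested genes (log2), with replicate 1 on the horizontal and replicate 2 on the vertical axis. Called genes, 635 higher in red and 421 lower in blue, lie in the quadrants where both pairs have the same sign, and named genes are examples given in the text.

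Cytokine and chemokine genes, the secreted products of activated T cells, were among the genes that fell most. Of 26 tested members of the list, 6 fell and 20 did not pass (4.27% of all tested genes fell). The median difference was -0.92, with -1.04 and -0.97 in the pairs, against 0.02 over all tested genes, and 24 of 26 members lay below 0. The fit with the actin covariate gave 5 falls, with Il10 and Il4 not among them (adjusted p = 0.0818 and 0.0927). The 6 were Il24, Lif, Il10, Lta, Il4 and Tgfb1, of which Il4 and Tgfb1 are named here to complete the count, after their values were seen.

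Lif encodes a cytokine of the interleukin-6 family that acts on stem cells and on other tissues. Its level was 9.14 and 10.19 at 10 nM (replicates 1 and 2) and 6.91 and 7.58 at 30 nM, after 11.91 and 11.30 in the control. Both 30 nM arrays lay below both 10 nM arrays, and the step was -2.42 ± 0.41 (adjusted p = 0.00613), 5.35-fold lower. A dimmer probe set of Lif was near the array's floor in replicate 1 at both doses (step -0.01) and lower by 3.26 in replicate 2.

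Il24 encodes a cytokine of the interleukin-10 family. It stood at 6.0 and 8.58 at 10 nM and at 2.82 and 6.01 at 30 nM, after 10.21 on both control arrays. The ranges of the doses just met, because replicate 1 was lower than replicate 2 at each, but both pairs fell, by 3.18 and 2.57 (step -2.87 ± 0.58, adjusted p = 0.0115). On the 30 nM array of replicate 1 it was under the detection level.

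Il10, which encodes an inhibitory cytokine, had been 6.84 and 8.17 at 10 nM and was 3.54 and 6.65 at 30 nM, with no overlap (step -2.41 ± 0.67, adjusted p = 0.0355). The difference from control at 10 nM was -0.92 ± 0.67 (adjusted p = 0.27), so most of its fall came after 10 nM. Il4, the cytokine of type 2 helper cells, had 5.01 and 8.03 at 10 nM and 3.33 and 6.33 at 30 nM (step -1.69 ± 0.50, adjusted p = 0.0441), a fall in both pairs with overlapping ranges.

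Lta, which encodes lymphotoxin alpha, took another course. It stood at 11.64 and 10.49 in the control, 12.69 and 11.57 at 10 nM, and 10.84 and 9.56 at 30 nM. The difference at 10 nM was 1.07 ± 0.45 (adjusted p = 0.062), and the step was -1.93 ± 0.45 (adjusted p = 0.019), so that both 30 nM arrays lay below their control partners. Other cytokine genes did not pass at the step: Ifng, the type 1 effector cytokine, differed by -0.20 ± 0.39, Tnf by -0.64 ± 0.42 and Il13 by -2.20 ± 0.71 (adjusted p = 0.781, 0.325 and 0.06). Tnf had been higher by 1.97 at 10 nM than in the control (adjusted p = 0.0014).

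The promoters of 4 genes that moved in different ways are shown, 250 bases before to 50 after the start in RefSeq (GRCm38.p6), with the motif that each holds in capitals, of the 4 searched (AP-1 site, TATA box, GC box and E-box). Lif (chr11:4257318-4257617, plus strand) fell and Gbp2 (chr3:142620413-142620712, plus strand) rose, and the capitals mark an AP-1 site, TGAGTCA or its reverse complement, in each. Lta (chr17:35205302-35205601, minus strand) holds the letters TATAAA of the TATA box motif. Cdkn2b (chr4:89310983-89311282, minus strand) rose and holds the letters GGGCGG of the GC box motif. Matches were to letters alone, anywhere in the stretch shown. The Lta match lies far before the start and the Cdkn2b match just after it. Whether any match works as a promoter element was not tested. These genes were chosen after their values were seen.
Lif: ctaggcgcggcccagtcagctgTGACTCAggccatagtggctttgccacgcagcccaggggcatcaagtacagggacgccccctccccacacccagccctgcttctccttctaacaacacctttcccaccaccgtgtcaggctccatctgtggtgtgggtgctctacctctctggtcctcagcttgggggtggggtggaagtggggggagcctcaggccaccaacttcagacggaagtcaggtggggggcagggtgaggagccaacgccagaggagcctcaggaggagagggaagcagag
Lta: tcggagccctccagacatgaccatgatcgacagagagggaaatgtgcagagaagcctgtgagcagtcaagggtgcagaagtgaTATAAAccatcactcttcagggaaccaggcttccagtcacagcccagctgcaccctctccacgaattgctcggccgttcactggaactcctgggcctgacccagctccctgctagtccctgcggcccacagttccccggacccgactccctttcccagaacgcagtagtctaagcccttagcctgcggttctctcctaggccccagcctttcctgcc
Cdkn2b: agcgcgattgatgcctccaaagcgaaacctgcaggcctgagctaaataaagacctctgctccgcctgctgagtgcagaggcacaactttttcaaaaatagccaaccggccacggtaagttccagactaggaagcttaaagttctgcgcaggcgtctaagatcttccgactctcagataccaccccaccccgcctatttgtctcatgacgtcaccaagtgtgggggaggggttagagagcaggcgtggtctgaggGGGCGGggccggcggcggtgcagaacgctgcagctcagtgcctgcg
Gbp2: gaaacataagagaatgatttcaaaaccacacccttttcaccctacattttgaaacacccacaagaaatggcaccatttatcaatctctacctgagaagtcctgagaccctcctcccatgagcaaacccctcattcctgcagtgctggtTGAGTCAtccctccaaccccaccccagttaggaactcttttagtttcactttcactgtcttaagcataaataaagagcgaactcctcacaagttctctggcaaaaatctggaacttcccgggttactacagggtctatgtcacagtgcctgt
The AP-1 letters stood in the promoter of a gene that fell and in that of a gene that rose. On either strand they were in 5.17% of all promoters of the table, 3.19% of those of the tested genes, 6.46% of those of genes that fell, 4.16% of those of genes that rose and 1.03% of those of plateau genes. The GC box was in 67.3% of the tested, 59.1% of the fallen, 69.2% of the risen and 76.3% of the plateau promoters, and in 35.9% of the table. TATAAA was in 6.51%, 11.1%, 4.91% and 5.15% of these groups and in 14.2% of the table. The E-box CACGTG was in 10.7%, 7.69%, 13.0% and 7.73% and in 7.24% of the table. A promoter was found for 82.1% of the tested genes but for 77.2% of the fallen ones, too few to compare that group, and these shares are descriptions with no test.

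**Figure D2:**
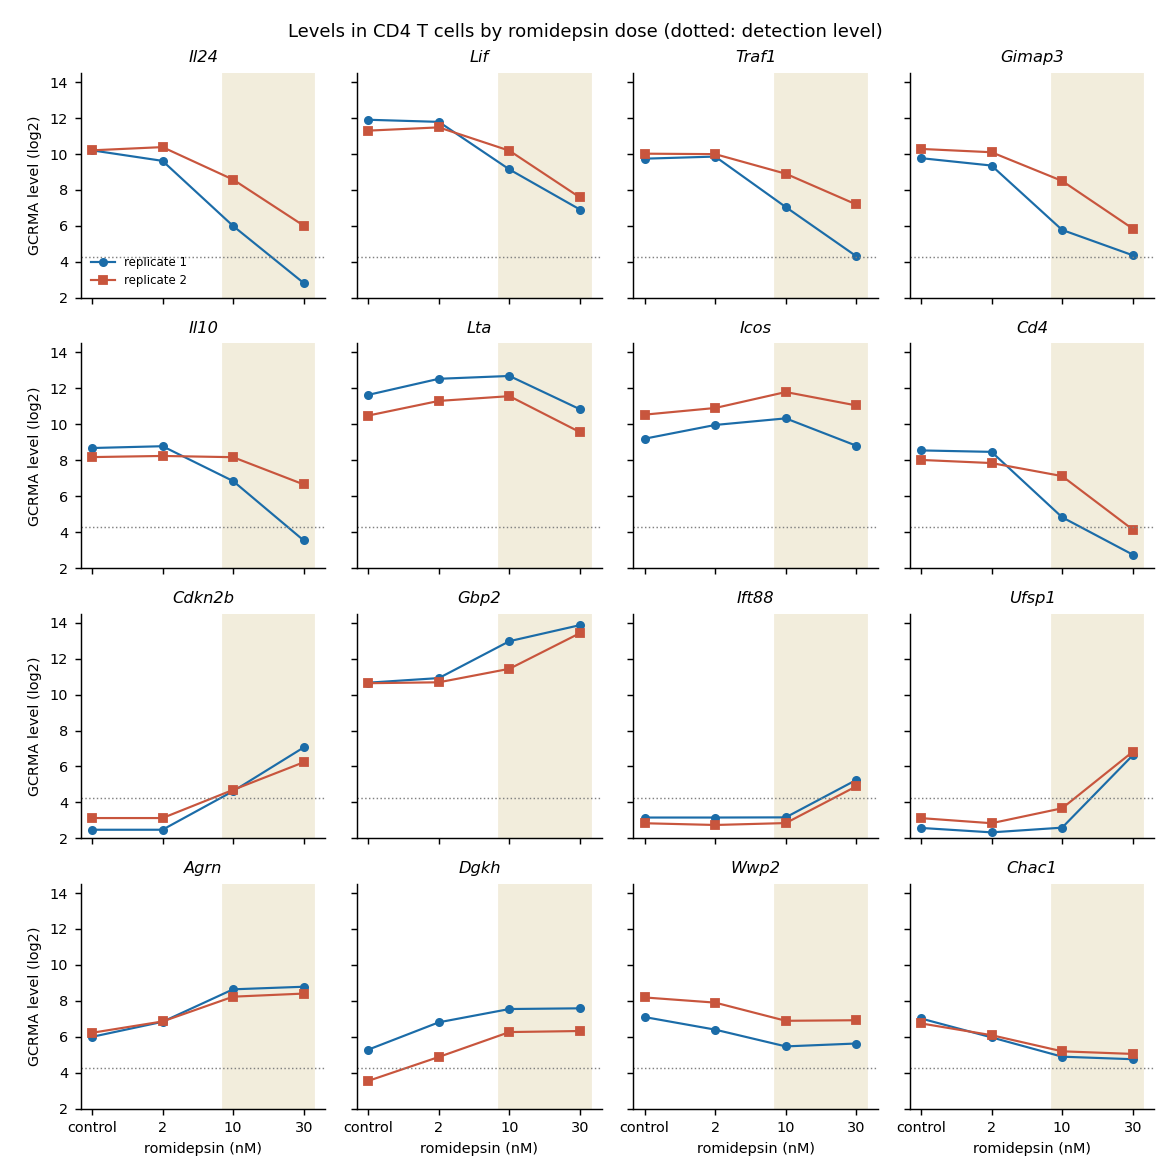
Level (GCRMA, log2) of 16 genes in CD4 T cells in the control and at 2, 10 and 30 nM romidepsin, doses evenly spaced and the 10 to 30 nM step shaded; blue circles are replicate 1, red squares replicate 2, and the dotted line is the detection level of 4.27. Il24, Lif, Traf1, Gimap3, Il10 and Cd4 fall along the shaded step, Lta and Icos turn down after 10 nM, Cdkn2b, Gbp2, Ift88 and Ufsp1 rise, and Agrn, Dgkh, Wwp2 and Chac1 stay level.

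Genes of the T cell receptor pathway, which carries the antigen signal from the CD3 chains to kinases and adaptors, moved down as well. Of 25 tested, 7 fell (Trat1, Rasgrp1, Cd6, Ptpn22, Prkcq, Cd3g and Nfatc2) and 18 did not pass, beside 4.27% of all tested genes that fell. The median was -0.89 (-0.96 and -0.98 in the pairs), and 24 of 25 members lay below 0. The same list had a median of -1.51 at 10 nM against control, where 18 had fallen (22% of all tested genes fell there by any size). Just 1 of the 25, Ptpn22, fell with the actin covariate, at a median of -0.49. Prkcq and Nfatc2 are named to complete the count, after their values were seen.

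Trat1, an adaptor that steadies the receptor at the cell surface, was 6.01 and 6.38 at 10 nM and 5.08 and 4.81 at 30 nM, with no overlap (step -1.25 ± 0.31, adjusted p = 0.0238). Rasgrp1, which activates Ras after the receptor fires, was 9.27 and 9.89 and then 8.15 and 8.70, also without overlap. Its step of -1.15 ± 0.27 (adjusted p = 0.02) followed a difference of -0.44 ± 0.27 at 10 nM (adjusted p = 0.19). Cd3g, a chain of the CD3 complex, fell by 0.70 ± 0.21 (adjusted p = 0.0463), while Cd3e and Cd3d differed by -0.51 ± 0.20 and -0.51 ± 0.27 (adjusted p = 0.105 and 0.21). The kinase gene Zap70 and the adaptor gene Lat, at -1.31 ± 0.57 and -0.81 ± 0.27, did not pass either.

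The coreceptor gene Cd4 itself went under the detection level. It was 8.55 and 8.02 in the control, 4.83 and 7.12 at 10 nM, and 2.75 and 4.14 at 30 nM, where both arrays were under the detection level. The 30 nM arrays lay below both 10 nM arrays (step -2.53 ± 0.59, adjusted p = 0.019), and the fall was at least 3.25-fold when the 30 nM mean is put at the detection level. In bulk RNA, fewer cells of a type and less RNA per cell cannot be told apart. Of 10 CD4 T cell markers, 8 were above the detection level on each 30 nM array, Thy1, Cd5 and the CD3 chains among them, and Cd40lg was under it on all arrays of the control and of the 3 doses. The summed linear level of the 10 fell from 14089 and 23663 at 10 nM to 7838 and 15507 at 30 nM.

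Markers of other cells were mostly under the detection level. The 10 B cell markers on the array summed to 61.7 and 201.4 at 10 nM and to 69.0 and 115.5 at 30 nM, after 156.9 and 1447 in the control, with Pax5, Cd79a and Ebf1 under the detection level on the 4 arrays of the step and Cd79b at 6.48 and 5.16 in replicate 2, and none of the 5 tested passed with limma, adjusted or unadjusted. The 15 myeloid markers summed to 182.2 and 194.6 and then to 152.9 and 190.6, after 132.5 and 196.2 in the control, with Cd14, Csf1r and Lyz2 under the detection level and Cd68 between 6.33 and 6.82, and the 4 NK markers to 20.2 and 26.0 and then to 20.1 and 21.6, all under it. The 7 erythroid and platelet markers were under it as well, and the 8 stromal markers summed to 333.7 and 517.5 and then to 382.7 and 500.3, after 132.1 and 322.2 in the control, with the collagens and Pdgfrb under it. Epcam, an epithelial adhesion gene and the single stromal list member detected on the 4 arrays, was 8.21 and 8.86 and then 8.44 and 8.84, after a rise of 1.65 at 10 nM (adjusted p = 0.00754). Cd8b1, a CD8 marker, fell by 0.93 ± 0.28 (6.53 and 7.72, then 5.32 and 7.08, adjusted p = 0.0481, and 0.113 with the actin covariate) in these CD4 cells. The part of these cells in the results was not tested.

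Costimulatory and inhibitory receptors gave 4 falls among 17 tested (4.27% of all tested genes fell), with a median of -0.93 and all 17 below 0. Slamf1, a receptor that binds itself on neighbouring lymphocytes, was 9.09 and 10.04 at 10 nM and 7.23 and 8.65 at 30 nM, with no overlap (step -1.63 ± 0.34, adjusted p = 0.0127). It had differed from control by -0.27 ± 0.34 at 10 nM (adjusted p = 0.54). Tnfrsf9, which encodes the costimulator 4-1BB, fell by 1.32 ± 0.29 and Lag3, an inhibitory receptor, by 0.93 ± 0.27 (adjusted p = 0.0155 and 0.042). Cd28, Ctla4 and Pdcd1 did not pass, at -0.89 ± 0.29, -0.42 ± 0.24 and -1.21 ± 0.49. There were 2 falls with the actin covariate, Slamf1 and Tnfrsf9.

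Cytokine receptors and their JAK-STAT partners gave 7 falls among 29 (Il21r, Il2rb, Il2ra, Cish, Socs3, Il4ra and Pim2), beside 4.27% of all tested genes. The median was -0.65, and 6 fell with the actin covariate, without Il4ra. Il2ra, the high-affinity chain of the interleukin-2 receptor, stood at 11.01 and 10.67 in the control and at 9.98 and 11 at 10 nM. At 30 nM it was 8.58 and 9.39, below every one of those arrays (step -1.51 ± 0.33, adjusted p = 0.015). Il2rb, the signalling chain it shares a complex with, fell by 1.60 ± 0.27 and Il21r by 1.75 ± 0.36 (adjusted p = 0.00613 and 0.0128), both after falls at 10 nM. Cish, a feedback inhibitor induced by STAT5, was 10.17 and 11.39 and then 8.86 and 9.76, a step of -1.47 ± 0.32 (adjusted p = 0.0154). Socs3, another feedback inhibitor, was level up to 10 nM at 13.11 and 13.09 and then fell to 12.04 and 11.92 (adjusted p = 0.0175). Socs3, Il4ra and Pim2 are named to complete the count, after their values were seen.

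Chemokine receptors and adhesion molecules gave 4 falls among 18, and those 4 were adhesion genes: Selplg, the P-selectin ligand, at -1.13 ± 0.17, and the integrin chains Itgb2, Itgb7 and Itga4 at -1.10 ± 0.31, -1.03 ± 0.29 and -0.90 ± 0.18 (adjusted p = 0.00368, 0.0371, 0.0354 and 0.0117). Selplg was 9.50 and 10.48 at 10 nM and 8.41 and 9.32 at 30 nM, without overlap. All 18 lay below 0 and the median was -0.56, and 4.27% of all tested genes fell. Itgb2 and Itgb7 did not pass with the actin covariate (adjusted p = 0.0908 and 0.0739), and neither did Unc13d (0.145). Among 16 cytotoxic granule genes 1 fell, a share of 6.25% beside 4.27% of all tested genes. It was Unc13d, which primes granules for release, lower by 0.75 ± 0.22 (adjusted p = 0.0425). Gzmb and Prf1, granule protease and pore, differed by -0.91 ± 0.39 and -1.46 ± 0.71 and did not pass.

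T cell lineage transcription factors gave 7 falls among 29 tested (4.27% of all tested genes fell), with a median of -0.67. With the actin covariate 4 fell, without Gfi1, Tox and Runx1. Ikzf1, which encodes the lymphoid factor Ikaros, was 8.58 and 9.75 at 10 nM and 7.16 and 8.26 at 30 nM, without overlap (step -1.46 ± 0.36, adjusted p = 0.0251). Gfi1, a repressor active in dividing T cells, fell by 1.44 ± 0.33, Tox by 1.21 ± 0.34 and Gata3, the type 2 lineage factor, by 1.11 ± 0.17 (adjusted p = 0.0183, 0.0372 and 0.00326). Lef1, Runx1 and Zeb1, named to complete the count after their values were seen, fell by 0.93, 0.80 and 0.73. Tbx21, the type 1 lineage factor, and Eomes differed by -0.58 ± 0.25 and 0.07 ± 0.28 and did not pass.

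Immediate early factors, which respond within minutes to hours of stimulation, moved less at the median than the lineage factors. Their median was -0.21, and 20 of 27 lay below 0. Of the 27, 5 fell (18.5%, beside 4.27% of all tested genes): Myc, Dusp2, Tnfaip3, Ier3 and Dusp5. Myc, a transcription factor that drives cell growth, was 8.85 and 11.18 at 10 nM and 7.36 and 9.79 at 30 nM, and the replicates differed more than the doses (step -1.44 ± 0.31, adjusted p = 0.015). Dusp2, a phosphatase that turns off MAP kinases, was 10.37 and 10.25 and then 9.46 and 8.81, with no overlap (step -1.18 ± 0.19, adjusted p = 0.00528). Fos and Egr1 had risen at 10 nM by 2.32 and 1.21 (adjusted p = 0.00022 and 0.0005), and at the step they differed by 0.38 ± 0.38 and 0.00 ± 0.22. The interval of Egr1, -0.47 to 0.47, lay within a 1.5-fold change. Tnfaip3 and Dusp5 did not pass with the actin covariate, and Dusp5 is named to complete the count, after its value was seen.

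Survival genes had the highest share of falls of the lists examined with at least 10 tested genes. Of 18 tested, 11 fell, beside 4.27% of all tested genes. All 18 lay below 0, and the median was -0.89 (-0.79 and -1.0 in the pairs), after -1.01 at 10 nM. With the actin covariate 9 of the 18 fell, without Gimap8 and Xiap, and the median was -0.60. The 11 were Traf1, Gimap3, Gimap7, Cflar, Gimap4, Bcl2l1, Gimap6, Bcl2, Gimap8, Birc3 and Xiap, of which the last 7 are named after their values were seen.

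Traf1, an adaptor of the TNF receptor family, was 9.74 and 10.02 in the control, 7.05 and 8.90 at 10 nM, and 4.31 and 7.19 at 30 nM. Replicate 2 at 30 nM stayed above replicate 1 at 10 nM, and both pairs fell (step -2.23 ± 0.60, adjusted p = 0.0335). Cflar encodes c-FLIP, which blocks caspase-8 at death receptors. It was 7.56 and 8.37 at 10 nM and 6.11 and 7.09 at 30 nM, without overlap (step -1.37 ± 0.26, adjusted p = 0.00976), and of its 4 other probe sets 3 were lower in both pairs and 1, near the detection level, differed by 0.16 and -0.94. The antiapoptotic genes Bcl2l1 and Bcl2 fell by 1.16 ± 0.19 and 0.98 ± 0.21 (adjusted p = 0.00602 and 0.0143). Mcl1, another member of that family, differed by -0.38 ± 0.17 and did not pass (adjusted p = 0.138).

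The GIMAP genes encode GTPases that support lymphocyte survival, and they lie beside each other in the RefSeq annotation. Gimap3 was 9.77 and 10.29 in the control, 5.78 and 8.50 at 10 nM, and 4.37 and 5.85 at 30 nM, and the ranges at the doses overlapped (step -2.03 ± 0.47, adjusted p = 0.019). Gimap7 was 10.51 and 11.80 and then 8.94 and 10.59 (step -1.39 ± 0.36, adjusted p = 0.0274). Gimap4, Gimap6 and Gimap8 fell by 1.36, 1.11 and 0.96, and Gimap5 and Gimap9 differed by -0.81 ± 0.51 and -0.42 ± 0.15 without passing. The genes are similar in sequence, so probe sets of close relatives may share signal.

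The 21 tested genes of the proapoptotic BCL2 family and caspases gave 1 rise (4.76%) and 2 falls (9.52%). Of all tested genes 6.43% rose and 4.27% fell. Diablo, a mitochondrial protein that frees caspases from their inhibitors, was 8.28 and 8.39 at 10 nM and 9.12 and 9.30 at 30 nM, without overlap and after 7.32 and 7.72 in the control (step 0.88 ± 0.11, adjusted p = 0.000775). Casp8 and Bak1 fell by 1.02 ± 0.28 and 0.82 ± 0.19 (adjusted p = 0.0336 and 0.0185). Bcl2l11, which encodes the killer protein Bim, had risen by 1.55 at 10 nM (adjusted p = 2.1e-05) and differed by 0.31 ± 0.19 at the step.

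Other large falls came from genes outside the lists above. Vldlr among them belongs to the ATF4 and unfolded protein response list, given below. Themis, needed for T cell receptor signalling in the thymus, was 5.83 and 7.95 at 10 nM and 3.65 and 5.56 at 30 nM, without overlap (step -2.28 ± 0.69, adjusted p = 0.047), and 3 dimmer probe sets were lower in replicate 2 by 0.81 to 1.28 and by 0.00 to 0.08 in replicate 1, where they were under the detection level. Vldlr, a lipoprotein receptor, fell by 2.03 ± 0.60 and Treml2, a lymphocyte surface receptor, by 1.98 ± 0.51. Lxn, which encodes a carboxypeptidase inhibitor, fell by 1.91 ± 0.45, Ccn4 by 1.91 ± 0.40 and Nrros by 1.82 ± 0.36. Ccn4, which encodes a secreted matricellular protein, was 6.60 and 7.45 at 10 nM beside 6.88 and 7.40 in the control. That difference was -0.12 ± 0.40 (adjusted p = 0.846), and at 30 nM it was 3.88 and 6.37 (adjusted p = 0.0137 for the step). Another probe set of Ccn4 was 6.51 and 6.64 in the control, 5.58 and 6.36 at 10 nM, and 3.97 and 5.02 at 30 nM. By that probe set Ccn4 was already lower at 10 nM in both replicates. Besides Cd4, the means of Pik3cg, Abcb1a, Pou2af1 and Lama5 went under the detection level at 30 nM, falls of at least 1.87-fold, 1.79-fold, 1.61-fold and 1.26-fold. Themis, Vldlr, Treml2, Pou2af1 and Lama5 did not pass with the actin covariate. Pou2af1 is a coactivator known from B cells, and at 2.27 and 5.48 its replicates were far apart.

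Several rises started from under the detection level. Ufsp1, which encodes a protease related to those that process the ubiquitin-like modifier UFM1, was 2.59 and 3.67 at 10 nM and 6.62 and 6.81 at 30 nM, after 2.58 and 3.12 in the control. It rose by at least 5.45-fold over the detection level (adjusted p = 5.01e-06). Derl3, a protein of endoplasmic reticulum quality control, rose to 4.97 and 6.73, Armc2 to 6.39 and 4.92, Elovl2, a fatty acid elongase, to 6.44 and 4.14, and Pih1d2 to 5.29 and 4.36. These are rises of at least 2.99-fold, 2.61-fold, 2.03-fold and 1.47-fold, and on both 10 nM arrays the 4 genes were under the detection level. Elovl2 stayed under it in replicate 2 at 30 nM.

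Among genes with both means above the detection level, BC023105 had the highest rise. It was 2.49 and 2.25 in the control, 7.79 and 4.85 at 10 nM, and 10.24 and 8.87 at 30 nM, without overlap between the doses (step 3.23 ± 0.73, adjusted p = 0.0179). Dzank1, 7.16 and 4.62 at 10 nM, reached 8.83 and 7.77 (step 2.41 ± 0.55, adjusted p = 0.0184). Both had risen further in replicate 1 at 10 nM, and at the step replicate 2 moved more, by 4.01 and 3.15 against 2.45 and 1.67. Dzank1 had an adjusted p of 0.0569 with the actin covariate.

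Cdkn2b encodes the CDK inhibitor p15, which holds cyclin D kinases in check. Its level was 2.47 and 3.13 in the control, 4.62 and 4.70 at 10 nM and 7.06 and 6.23 at 30 nM, without overlap (step 1.99 ± 0.58, adjusted p = 0.042). Cdk6, one of the kinases that p15 binds, went from 10.09 and 10.91 to 9.24 and 9.87, a fall of 0.94 ± 0.26 (adjusted p = 0.0374). No other gene of that list of 20 passed with limma, and 11 of the 20, Cdkn2b and Cdk6 included, had an unadjusted p under 0.05. Neither Cdkn2b nor Cdk6 passed with the actin covariate (adjusted p = 0.13 and 0.0992), where Cdkn2a was the 1 gene of the list that did. Cdkn1a, which encodes p21, differed by -0.63 ± 0.26 and Cdkn1c, which encodes p57, by 0.99 ± 0.37 (adjusted p = 0.112 and 0.089).

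The other rises among the 12 highest were Mns1, Reep6, Tigd3, Cep131, Cdkl2, Ddah2, Clba1, Gbp2 and 1700029I15Rik, between 1.38 and 1.68. Mns1, which encodes a filament protein of sperm flagella, was 5.63 and 6.04 at 10 nM and 7.34 and 7.68 at 30 nM (step 1.68 ± 0.31, adjusted p = 0.00865). Cep131 encodes a centrosomal protein and was 3.86 and 5.17 and then 5.80 and 6.33 (step 1.55 ± 0.31, adjusted p = 0.0101). Neither overlapped between the doses. Cdkl2, Clba1 and Gbp2 did not pass with the actin covariate.

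Interferon response genes gave 3 rises among 21 (6.43% of all tested genes rose), with a median of 0.25 after 0.62 at 10 nM. Gbp2, a guanylate-binding GTPase that attacks vacuoles of pathogens, was 10.66 and 10.63 in the control, 12.97 and 11.44 at 10 nM and 13.87 and 13.42 at 30 nM. The doses did not overlap, and the step was 1.44 ± 0.38 (adjusted p = 0.0315). Gbp6, of the same family, was 9.37 and 8.26 and then 10.27 and 10.01 (step 1.33 ± 0.21, adjusted p = 0.00485). Irgm1, an immunity-related GTPase, rose by 0.68 ± 0.19 (adjusted p = 0.0354). The fit with the actin covariate gave 2 rises, with Gbp2 and Irgm1 not among them (adjusted p = 0.0939 and 0.11).

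Heat shock and proteasome genes gave 3 rises each among 16 tested (6.43% of all tested genes rose), with medians of 0.16 and 0.27. Hspa1a was 7.78 and 5.12 at 10 nM and 8.62 and 6.94 at 30 nM, and Hspa1b was 11.29 and 10.03 and then 11.96 and 11.37 (steps of 1.33 ± 0.39 and 1.01 ± 0.23, adjusted p = 0.0419 and 0.0179). These genes encode the inducible chaperone HSP70 and are near-identical copies, so their probe sets may share signal. Dnajb1, a cochaperone, rose by 0.46 ± 0.10. The proteasome subunits Psmd4, Psmb3 and Psmd1 rose by 0.74 ± 0.14, 0.45 ± 0.13 and 0.40 ± 0.12 (adjusted p = 0.00887, 0.0469 and 0.0422), and 12 of the 16 genes of that list had an interval within a 1.5-fold change. In each list 1 gene rose with the actin covariate, Dnajb1 and Psmd4.

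DNA replication genes gave 4 rises among 28 (6.43% of all tested genes rose) with a median of 0.12, after a median of -0.46 at 10 nM. Orc6, of the complex that marks origins, rose by 0.71 ± 0.17, and Rfc4, Rpa2 and Prim1, which load the clamp, coat single strands and lay primers, by 0.55 ± 0.16, 0.45 ± 0.11 and 0.40 ± 0.11. None of the 28 passed with the actin covariate, and 4 did without it. Mitosis genes had fallen more at 10 nM, with 25 of 29 lower (22% of all tested genes) and a median of -0.77. At the step their median was 0.04 and turned to -0.02 without replicate 1 of 10 nM and to -0.01 without replicate 1 of 30 nM, and 20 of 29 had an interval within a 1.5-fold change. Espl1, which encodes separase, rose by 0.58 ± 0.15 (adjusted p = 0.028, and 0.0714 with the actin covariate), and Top2a and Mki67 differed by 0.08 ± 0.12 and -0.51 ± 0.28.

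In the neuronal list, genes silent in normal T cells, 14 of 28 members were tested. A gene silent in the control was tested only where other arrays lifted it over the detection level. At 10 nM 11 of the 14 had risen, with a median of 1.71 (26.2% of all tested genes rose there by any size). That count and median are partly fixed by the filter and do not describe the untested members. The median at the step was 0.27. Uchl1, a ubiquitin hydrolase of neurons, was 2.83 and 2.25 in the control, 4.95 and 4.47 at 10 nM, and 5.86 and 6.22 at 30 nM (step 1.33 ± 0.34, adjusted p = 0.0284). Bex2 rose by 1.02 ± 0.28 (adjusted p = 0.0347), from 5.41 and 6.87 to 6.49 and 7.82, and did not pass with the actin covariate (adjusted p = 0.088).

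Metabolic lists were mixed. In the glucose list 3 of 20 genes fell, beside 4.27% of all tested genes. The glucose genes Slc2a3, the neuronal-type glucose transporter, Pfkp and Hk2, kinases of early glycolysis, fell by 0.73 ± 0.16, 0.69 ± 0.17 and 0.63 ± 0.13 (adjusted p = 0.0154, 0.025 and 0.0143) among 20 tested. Hk2 had been higher by 0.38 at 10 nM (adjusted p = 0.031). In the ATF4 and unfolded protein response list Vldlr, Xbp1 and Edem1 fell among 24 (4.27% of all tested genes fell), Xbp1 by 0.88 ± 0.21 and Edem1 by 0.77 ± 0.20. Xbp1 was the 1 fall left with the actin covariate, where the median of the list went from -0.26 to -0.08. In the sterol list Mvk and Idi1, enzymes of the mevalonate route, rose by 0.92 ± 0.25 and 0.52 ± 0.16 among 23 (6.43% of all tested genes rose). Pfkp and Idi1 did not pass with the actin covariate.

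Histone deacetylase genes, of which romidepsin inhibits the products of class I, gave no call. Of 15 tested, class II genes and sirtuins included, none passed at the step with limma (3 had an unadjusted p under 0.05, Hdac4, Hdac7 and Sirt7), and 7 had an interval within a 1.5-fold change. The median was 0.04, and -0.02 with the actin covariate. Hdac1, which had risen by 0.82 at 10 nM (adjusted p = 5e-05), was 11.26 and 11.45 and then 11.31 and 11.56, an interval of -0.16 to 0.32. Hdac2 and Hdac3 differed by 0.11 ± 0.11 and 0.10 ± 0.08. Hdac7, a class II gene known from T cells, had fallen at 10 nM by 2.86 and was 5.53 and 8.01 and then 3.90 and 6.67 (step -1.49 ± 0.51, adjusted p = 0.0718).

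**Figure D3:**
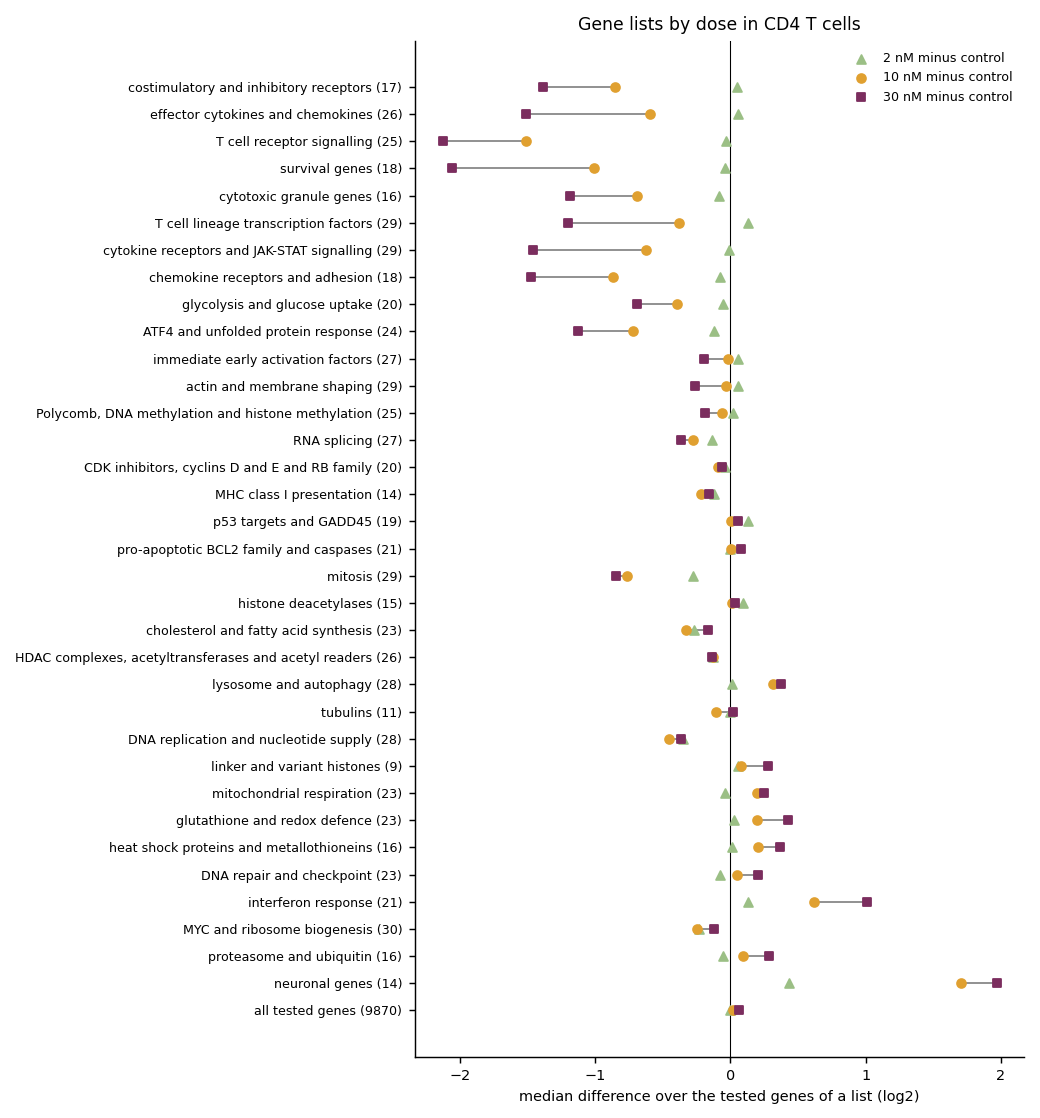
Median difference from control (log2) over the tested genes of each list in CD4 T cells at 2 nM (triangles), 10 nM (circles) and 30 nM (squares) romidepsin, with the number of tested genes in brackets; the grey line joins 10 and 30 nM and all 3 doses share the control arrays. The T cell, cytokine and survival lists run on to the left from 10 to 30 nM, while mitosis and the histone deacetylases stay in place.

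To separate genes that went on from genes that had stopped, genes called at 10 nM against control and changed by at least 2-fold were taken as responders: 915 had risen (9.27% of the tested genes) and 758 had fallen (7.68%). A responder was at a plateau where the 95% interval of the step lay whole within a 1.5-fold change (0.58 on the log2 scale). It moved onward or back where it was called at the step with or against its response and was not at a plateau, and it was undecided otherwise. Of the 1673 responders, 235 were at a plateau, 245 moved onward, 6 moved back and 1187 (71.0%) were undecided. Among all tested genes 46.8% had an interval that narrow, and the median width on each side was 0.56 for responders and 0.35 for all tested genes. The 10 nM arrays stand in both comparisons, so an overshoot there by chance moves genes toward a plateau or back.

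The shares at a plateau and onward were counted for rises and falls apart. Of the 915 rises, 149 (16.3%) were at a plateau and 108 (11.8%) moved onward, while of the 758 falls 86 (11.3%) were at a plateau and 137 (18.1%) moved onward. The median step was 0.33 among the rises and -0.55 among the falls, and replicate 2, which had responded less at 10 nM, moved more in both (0.48 and -0.70) than replicate 1 (0.19 and -0.37). The difference between rises and falls was not tested. The median width of the interval on each side was 0.53 for the rises and 0.61 for the falls, and a wider interval is less likely to lie within the margin. The plateau count was 27 without the block, 62 without replicate 1 of 10 nM, 131 and 110 without replicate 1 or 2 of 30 nM and 358 without replicate 2 of the control, and the onward count was 3 without the block, 1 without replicate 2 of 10 nM, 24 without replicate 1 of 30 nM and 156 with the actin covariate.

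**Figure D4:**
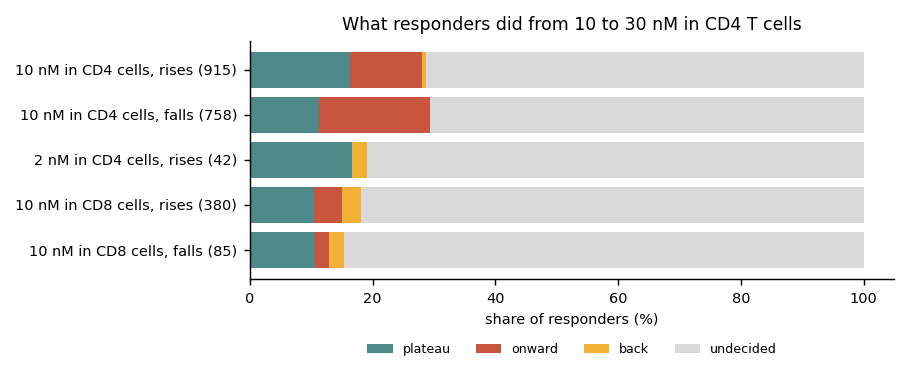
Share of responders (%) at a plateau, onward, back or undecided between 10 and 30 nM in CD4 T cells, for responders chosen at 10 nM in CD4 cells, at 2 nM in CD4 cells or at 10 nM in CD8 cells, with their number in brackets. Undecided genes make up the longest part of each bar, 71.0% of the CD4 responders at 10 nM.

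The plateau genes with the highest rises at 10 nM included several of cell shape and signalling. Agrn, which encodes the matrix protein agrin, was 5.99 and 6.22 in the control, 8.64 and 8.23 at 10 nM, and 8.78 and 8.40 at 30 nM. Its step was 0.16 ± 0.19 with an interval of -0.26 to 0.57. Dgkh, a diacylglycerol kinase, was 5.28 and 3.54, then 7.54 and 6.26, then 7.58 and 6.32 (interval -0.36 to 0.46). In both genes the doses overlapped and the replicates differed more than the doses.

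Fmnl2, a formin that builds actin filaments, was 2.44 and 2.35 in the control, 5.69 and 5.66 at 10 nM, and 5.71 and 5.76 at 30 nM, so the rise was complete at 10 nM within an interval of -0.39 to 0.51. Mxra8, Ggh, Hebp1, 2610524H06Rik and Plekha1 completed the 8, with rises of 2.12 to 2.26 at 10 nM and steps of 0.02 to 0.14.

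The 8 plateau genes with the largest falls had fallen by 1.47 to 1.92 at 10 nM on the log2 scale. Chac1, an enzyme that breaks down glutathione and a target of ATF4, was 7.01 and 6.74 in the control, 4.89 and 5.19 at 10 nM, and 4.75 and 5.04 at 30 nM (step -0.14 ± 0.17, interval -0.51 to 0.23). Wwp2, a ubiquitin ligase, was 7.09 and 8.18, then 5.46 and 6.89, then 5.62 and 6.92 (interval -0.20 to 0.39). In Gmip, Ap4s1, Hcfc1 and Nudt1 replicate 1 was higher at 30 nM and replicate 2 lower, and in Endog and Rab11b the pairs differed by 0.10 or less in size.

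Among onward genes whose 10 nM mean was under the detection level, Dpp7, a lysosomal peptidase gene, was 4.24 and 4.27 at 10 nM and 6.16 and 5.88 at 30 nM, a rise of at least 3.37-fold. Ppil6 rose from 4.60 and 3.38 to 5.80 and 5.89 and Shroom3, a shaper of the actin cortex, from 2.49 and 4.33 to 5.35 and 5.50, at least 2.65-fold and 2.18-fold. Neither dose range overlapped the other in these 3 genes.

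The 6 genes that moved back had all risen at 10 nM: Icos, Mir155hg, Nrp1, Gcnt2, Hsd11b1 and 2810410L24Rik. Icos, a costimulator of follicular helper and other effector T cells, was 9.20 and 10.54 in the control, 10.33 and 11.80 at 10 nM, and 8.81 and 11.05 at 30 nM. The doses overlapped, both pairs fell (step -1.14 ± 0.30, adjusted p = 0.0317), and 2 other probe sets were lower in both pairs. Mir155hg, the host transcript of the microRNA miR-155, was 5.89 and 7.23, then 7.67 and 7.99, then 6.15 and 7.25 (step -1.13 ± 0.31, adjusted p = 0.0349). Nrp1, a semaphorin coreceptor, fell by 0.97 ± 0.28 (adjusted p = 0.0407) after a rise of 1.26. The count was 1 without replicate 1 of 30 nM, 9 without replicate 2 of 30 nM or replicate 1 of the control, and 0 without replicate 2 of 10 nM or without the block. With the CD4 arrays alone it was 1, and with the actin covariate it was also 1, 2810410L24Rik.

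A small group met a rule for genes that move after 10 nM and little up to it. These 4 late genes (0.0405% of those tested) had an interval within a 1.5-fold change at 10 nM against control and changed by at least 2-fold at the step. Ift88, a subunit of the transport trains that build cilia, was 3.15 and 2.84 in the control, 3.16 and 2.85 at 10 nM, and 5.25 and 4.89 at 30 nM. The groups did not overlap (step 2.07 ± 0.11, adjusted p = 4.02e-08). Both lower groups lay under the detection level, so the rise is at least 1.74-fold and the small standard error comes from values at the floor. Nek4, a kinase, and Nubp2, an iron-sulphur cluster assembly factor, rose by 1.22 ± 0.26 and 1.02 ± 0.19 (adjusted p = 0.0138 and 0.00976). A dimmer probe set of Nubp2 was 7.51 and 7.79 in the control, 8.20 and 7.98 at 10 nM, and 9.30 and 8.88 at 30 nM. It was thus already higher at 10 nM in both replicates.

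Tgm1, a transglutaminase, was the late gene that fell. It was 9.02 and 7.47 in the control, 9.07 and 7.98 at 10 nM, and 8.13 and 6.42 at 30 nM (step -1.25 ± 0.14, adjusted p = 0.000292). The doses overlapped between replicates. The number of late genes ran from 1 to 20 over the fits that leave out 1 array, with 20 without replicate 2 of 30 nM and 1 without replicate 1 of the control, and was 1 with the actin covariate.

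Responders were also chosen on other arrays, which the step did not use. At 2 nM 42 genes had changed by at least 2-fold (0.426%), all rises, and of these 7 were at a plateau from 10 to 30 nM, 1 moved back and 34 were undecided. Of the 465 genes that responded to 10 nM in CD8 T cells (4.71%), 49 were at a plateau in the CD4 step, 19 moved onward, 14 moved back and 383 were undecided. In both choices the replicate block was estimated from all arrays. Their median steps were -0.11 and -0.01. The CD8 count of 49 was 15, 23, 24 and 17 without replicates 1 and 2 of 10 nM and of 30 nM, in that order.

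In CD8 T cells the same dose step raised 1264 genes (12.8%) and lowered 790 (8%). The difference of the steps was past the threshold for 6 genes (0.0608%, and 20 genes with the actin covariate), none of them from the T cell, cytokine or survival lists. Fmnl2, Msrb3 and Mxra8 had risen at 10 nM in CD4 cells and rose at the next dose in CD8 cells. Fmnl2 was 2.75 and 2.35 at 10 nM and 5.19 and 4.18 at 30 nM in CD8 cells, a step of 2.13 against 0.06 in CD4 cells (difference -2.07 ± 0.30, adjusted p = 0.0165). Msrb3, which repairs oxidised methionine, was 2.98 and 3.01 and then 5.56 and 6.18 in CD8 cells, and 5.75 and 5.89 and then 5.84 and 6.91 in CD4 cells (difference -2.32 ± 0.35, adjusted p = 0.0169). Mxra8, an adhesion protein, differed by -1.27 ± 0.20 (adjusted p = 0.0223).

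For the other 3 genes the CD8 arrays stayed under the detection level at every dose, so a fall of Prdm16 or Tgm1 could not have been seen there and their difference is the CD4 step alone. 1700061F12Rik rose in CD4 cells from 5.22 and 5.06 to 6.16 and 6.34 (difference of the steps 1.09 ± 0.15, adjusted p = 0.0165), and Prdm16, a zinc finger factor, and Tgm1 fell (differences of -1.55 ± 0.24 and -1.32 ± 0.19, adjusted p = 0.0223 and 0.0165). None of the 6 passed without the replicate block or after quantile normalization, where limma called 0 genes (147 and 1187 at an unadjusted p under 0.05). Over all alternatives their highest adjusted p was 0.334 to 1, and the count was 25 without replicate 2 of 30 nM and 3 without replicate 2 of 10 nM or without replicate 1 of 30 nM.

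Some genes with large falls in CD4 cells were under the detection level in CD8 cells throughout. Il24, Il10 and Cd4 lay at 2.25 to 2.53 on the 8 CD8 arrays of control and romidepsin, under the detection level. Lta was 11.87 and 9.24 at 10 nM and 12.49 and 10.06 at 30 nM in CD8 cells, a step of 0.72 ± 0.45 beside -1.93 in CD4 cells, and the difference of -2.65 ± 0.63 did not pass (adjusted p = 0.183). Il2ra was 10.79 and 9.91 and then 10.38 and 10.35 in CD8 cells, with a difference of the steps of -1.52 ± 0.46 (adjusted p = 0.321). Cdkn2b and Gbp2 rose in CD8 cells too, by 2.68 and 1.41 (adjusted p = 0.00784 and 0.02). The median step of the T cell receptor list was -1.05 in CD8 cells and -0.89 in CD4 cells, and that of the cytokine list -0.01 and -0.92. Members of the cytokine list such as Il24 and Il10, under the detection level in CD8 cells, could not show a fall there. They count in its CD8 median, so the medians of that list do not compare the cell types.

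**Figure D5:**
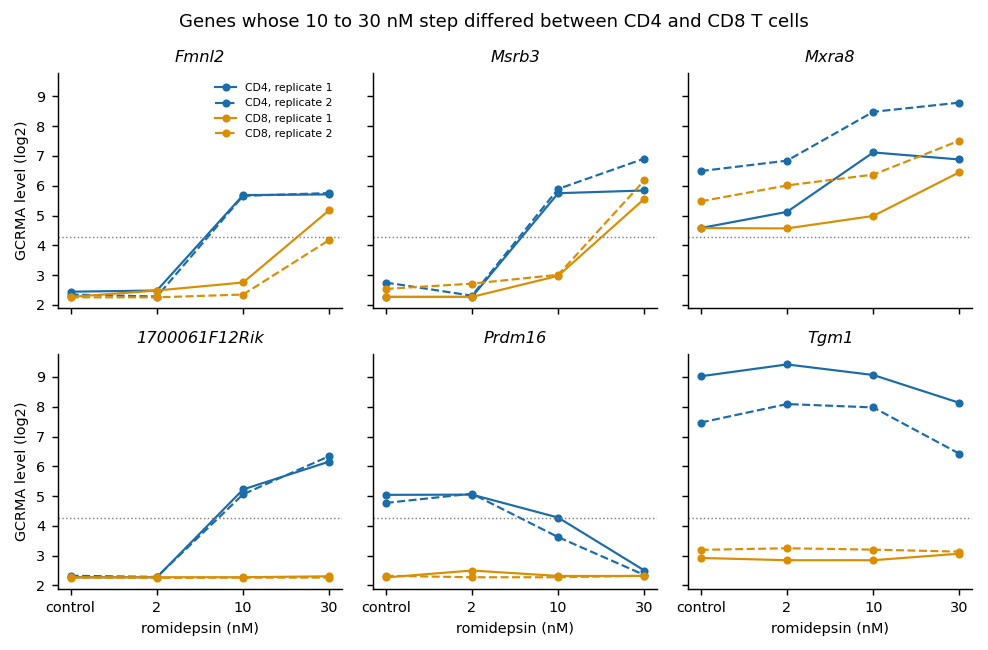
Level (GCRMA, log2) in CD4 (blue) and CD8 (orange) T cells in the control and at 2, 10 and 30 nM romidepsin of the 6 genes whose 10 to 30 nM step differed between the cell types; solid lines are replicate 1, dashed lines replicate 2, and the dotted line is the detection level of 4.27. Fmnl2, Msrb3 and Mxra8 rise by 10 nM in CD4 cells and after 10 nM in CD8 cells, and the CD8 arrays of the lower 3 genes stay under the detection level.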

How the data were processed

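Expression was measured on 28 Affymetrix Mouse430_2 arrays (14 groups of 2 arrays). The authors deposited log2 values made with GCRMA, which corrects background by probe sequence, normalizes across arrays and summarises probe sets, per the submitters' processing notes. Its version and settings are not given in the sources used here. Log base 2 was inferred from the range of the values. GCRMA normalizes across arrays, so a shift shared by most genes would not be seen.

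Of 45101 probe sets, 34945 name 1 gene, 932 several, 9160 none and 64 are controls. Symbols were updated through RefSeq for 34741. The brightest probe set stood for its gene. A value counted as detected above 4.27, that is, 2 over the most frequent value of 2.27. One linear model (limma 3.58.1, lmFit and eBayes, in R 4.3.3) held the 14 group means and, as a block, the replicate number within each cell type (12 residual degrees of freedom, 14 without the block), with Benjamini-Hochberg adjustment over 9870 genes and a threshold of 0.05. The pairing comes from the replicate numbers in the labels and was checked on the values. The labels do not say whether cultures were separate, so p-values measure the spread between these arrays, which may be technical, and 2 arrays a group limit the precision. The fit was tested on simulated data with independent normal noise, which cannot speak to the dependence of the calls on single arrays.

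Genes were named by rule among those called with the same sign in both pairs. The rule takes the 12 largest changes each way where both doses were detected, up to 5 each way where 1 dose was not (given as bounds), and, from each of 41 lists, up to 4 called genes by size. It also takes the 8 largest plateau rises and falls, up to 6 late, onward or back genes each way, and up to 5 genes each way whose step differed from CD8 cells. Members of the marker and histone deacetylase lists could be named at any value. Other list members given with values that did not pass (such as Ifng or Tbx21) were chosen after their values were seen. The gene lists and the dose step were chosen with earlier results of these data known. Alternatives changed the block, arrays, normalization, filter, probe sets, variance trend, actin covariate, margins and replicates. Raw array images were not used here.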

Additional observations from a re-analysis of the deposited data

Results flagged for a closer look

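The step from 10 to 30 nM differed between CD4 and CD8 T cells for 6 genes by a test of the difference itself. The CD4 step minus the CD8 step was 1.09 for 1700061F12Rik, -2.07 for Fmnl2, -2.32 for Msrb3, -1.27 for Mxra8, -1.55 for Prdm16 and -1.32 for Tgm1. The CD8 arrays of 1700061F12Rik, Prdm16 and Tgm1 were under the detection level at every dose of romidepsin, and those of Fmnl2 and Msrb3 were under it up to 10 nM. A fall of Prdm16 or Tgm1 could therefore not show in CD8 cells, and the values of these 2 genes give no comparison of the cell types. Groups of 2 arrays were too small for a check of single outlying arrays.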

How the results depend on the processing

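The replicate numbers pair the arrays. Without the replicate block, limma gave 11 rises and 1 fall at the step (341 and 226 at an unadjusted p under 0.05), 27 plateau, 3 onward and 0 back genes, 1 late gene, plateau counts of 0 for responders chosen at 2 nM and 7 for those chosen in CD8 cells, and 0 genes that differed from CD8 cells (147 unadjusted). Of the 117 called genes named by the rule 6 still passed: 1700061F12Rik, Armc2, Ift88, Pih1d2, Prdm16 and Ufsp1.

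With the CD4 arrays alone 137 rose and 150 fell, with 98 onward, 1 back and 4 plateau genes among the 2 nM responders. With the 4 arrays alone limma called 0 and 0 (1755 and 1522 at an unadjusted p under 0.05). Quantile normalization gave 731 falls, 416 onward, 2 late and 0 genes that differed from CD8 cells (1187 unadjusted). Without the filter on low values 342 rose and 185 fell, with 89 onward, 2 back, 10 late and 18 genes that differed from CD8 cells. The stricter filter gave 2 such genes, and the mean of probe sets 3 back genes. The actin covariate gave 326 and 226, with 156 onward, 1 back, 1 late, 11 plateau genes among the 2 nM responders and 20 that differed from CD8 cells.

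A margin of 2-fold gave 791 plateau genes, 33 late ones, and 25 and 241 plateau genes among the 2 nM and the CD8 responders, and a narrower margin gave 16, 1, 2 and 1. Responders of any size gave 1979 plateau, 590 onward and 46 back genes, with 33 and 805 plateau genes among the 2 nM and CD8 responders.

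Leaving out 1 array gave 19 to 634 rises, 3 to 482 falls, 62 to 358 plateau, 1 to 309 onward, 0 to 9 back and 1 to 20 late genes, 2 to 27 and 15 to 24 plateau genes among the 2 nM and CD8 responders, and 3 to 25 genes that differed from CD8 cells. A group left with 1 array was assumed to vary like the others. Of the 117 named genes, 94 and 9 still passed without replicate 1 or 2 of 10 nM, and 15 and 89 without replicate 1 or 2 of 30 nM. The number of arrays and signal near the background limit what is called: a median interval of 0.35 on each side leaves smaller steps undecided.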
